A study of Arabidopsis thaliana with 24 samples.

Results

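The genes described here encode the Rubisco small subunits, Rubisco activase, the Calvin cycle enzymes, the CP12 proteins and the enzymes and transporters of photorespiration. They were chosen by locus, 35 in all, 20 of the Calvin cycle and 15 of photorespiration. Probes of the array matched 34 of them, and all 34 were among the 27814 genes tested. AT1G11860, of the photorespiration group, had no matched probe.

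The Calvin cycle fixes CO2 in the chloroplast stroma, where Rubisco joins it to a sugar bisphosphate and the following enzymes reduce the product and regenerate the acceptor. Rubisco also accepts oxygen, and photorespiration returns the carbon of the resulting phosphoglycolate to the cycle through chloroplast, peroxisome and mitochondrion. Most of these genes are expressed more strongly in green leaves than in roots.

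Roots of Arabidopsis thaliana were measured on 24 one-colour Agilent arrays, 3 for each of 8 groups. ATHB25/REM7-ind plants (labelled ISH1&2) carry ATHB25 (AT5G65410), a zinc finger homeodomain gene, and REM7 (AT3G18960), a B3 family gene, under an operator that an estradiol-activated transcription factor binds. The ISH1 and ISH2 plants each carry 1 inducible gene, which the labels do not name. What the control plants carry is not given in the sources used here. In each line, plants with 5 µM estradiol were compared with plants without it. According to the labels all seedlings were selected on hygromycin under constant light, transferred to new plates after 8 days and harvested as roots at an age of 15 days, while the methods of the study give a range of doses and an earlier transfer. Nothing states that the 3 arrays of a group came from separate cultures or from separate transgenic lines, so the tests measure the spread between these arrays.

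The level of a gene is given as log2 of the scanner's processed signal minus the 75th percentile of its array, so a level of 0 lies at that percentile. A response is the mean level with estradiol minus the mean level without it, on the same log2 scale, followed by its standard error. Levels of different genes come from different probes and were not compared. A response was called when its adjusted p was below 0.05 in limma (Benjamini-Hochberg over all genes tested). In root tissue, fewer cells of a type and less RNA per cell cannot be told apart.

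Between 76.9% and 84.8% of probes were well above background on 23 arrays, and 90.9% on ISH1 replicate 1 without estradiol. Each of 6 slides held all 4 lines with 1 treatment and 1 replicate number, so arrays with and without estradiol lie on different slides, and lines of 1 treatment lie side by side on the same slide. Each line had a fixed position on the slide, so that line and position cannot be told apart. The title was followed for 2 control arrays whose description says otherwise, which are replicate 2 of the plants without estradiol and replicate 3 of those with it. On control replicate 2 with estradiol the Calvin cycle genes stood higher than on the other 2 arrays of its group, by a median of 0.53. On the other 23 arrays the same median lay between -0.29 and 0.29.

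The induced genes were read first. ATHB25 had levels of 4.14, 4.23 and 4.36 in ATHB25/REM7-ind roots with estradiol, against -1.18, -0.14 and -0.61 without it. In ISH1 roots it had 5.31, 5.16 and 5.23 with estradiol, against -4.19, -4.60 and -4.58 without. In ISH2 roots with estradiol and in control roots without it, no array had it well above background. It was well above background on all 3 ISH2 arrays without estradiol and on 2 of 3 control arrays with it. Without estradiol, limma called ATHB25 higher than in control roots in ATHB25/REM7-ind (adjusted p = 8.75e-11), ISH1 (adjusted p = 1.33e-06) and ISH2 roots (adjusted p = 0.0371). REM7 had levels of 6.37, 6.02 and 6.02 in ISH2 roots with estradiol, against 0.18, 0.06 and -0.16 without. In ISH1 roots REM7 had 2.59, 0.80 and -0.19 with estradiol, against -1.66, -1.60 and -1.56 without, a response of 2.67 ± 0.41 (adjusted p = 1.71e-05). In ATHB25/REM7-ind roots REM7 was already high without estradiol, at 4.52, 4.53 and 4.64, against -1.72, -1.72 and -1.47 in control roots without estradiol, and its response to estradiol was 0.10 ± 0.41 (adjusted p = 0.848). In that line, REM7 levels with and without estradiol overlapped, and ATHB25 levels did not. Of the 2 genes, ATHB25 had the larger response in ISH1 roots, at 9.69 ± 0.36. Only REM7 rose in ISH2 roots, at 6.11 ± 0.41.

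With estradiol, nearly all of the 34 genes were higher in ATHB25/REM7-ind roots, most were lower in ISH2 roots, a part were lower by less in ISH1 roots, and almost none were called in control roots. In ATHB25/REM7-ind roots 32 of the 34 genes rose, GLYK fell, and GLDP2, at 0.06 ± 0.06, was not called. Of all genes tested 31.6% rose and 33% fell in that line. In ISH2 roots 27 of the 34 fell and 2 rose, where 21.9% of all genes fell and 27.3% rose. In ISH1 roots 21 fell and 2 rose, where 36.4% of all genes fell and 26.3% rose. In control roots 2 fell and 0 rose by limma's test, where 7.85% of all genes fell and 7.14% rose. At an unadjusted p below 0.05 the control counts were 4 lower and 2 higher. The plot of responses by gene gives all 34.

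**Figure D1:**
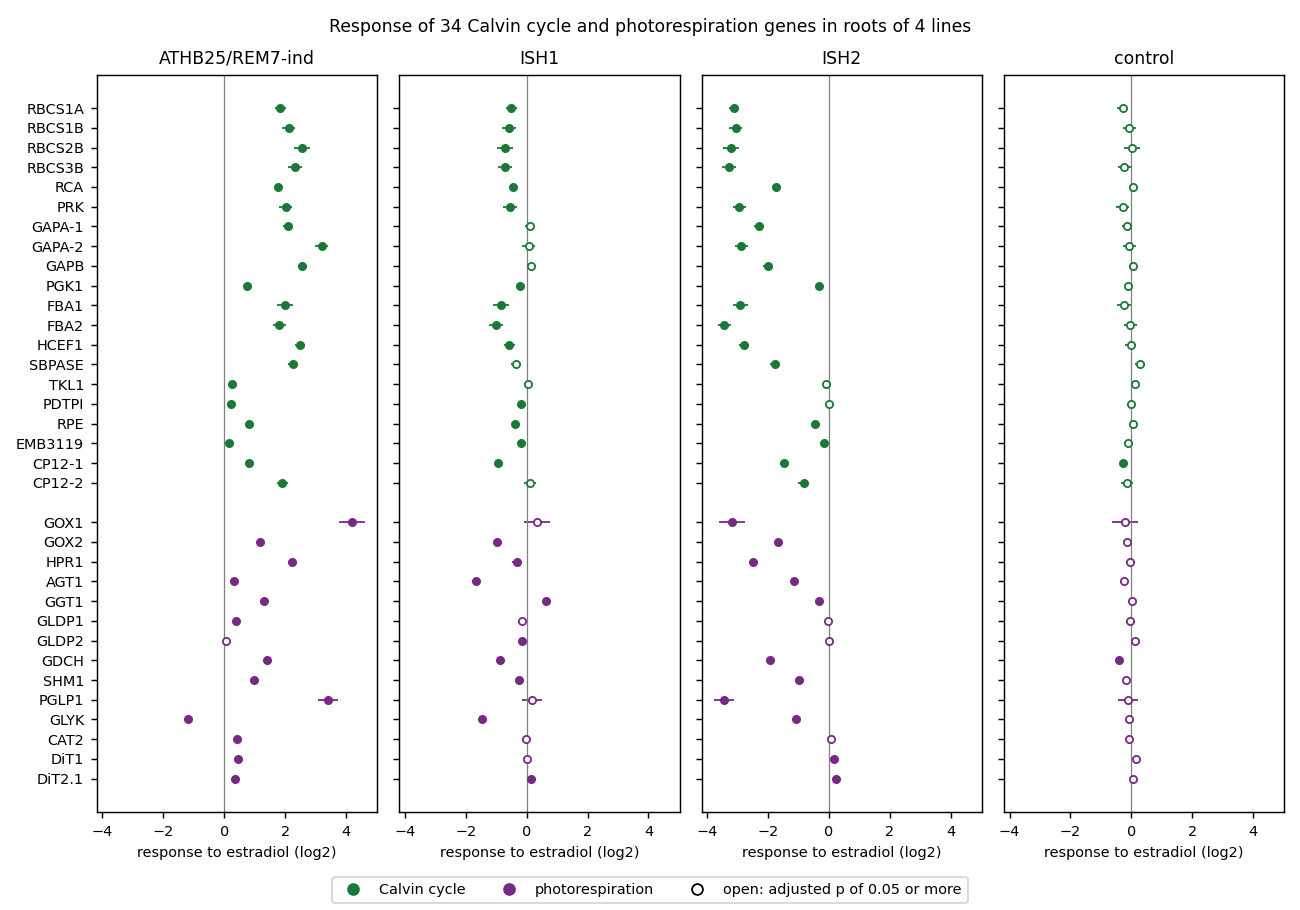
Response to estradiol on the log2 scale (x axis) of each of 34 genes (y axis) in ATHB25/REM7-ind, ISH1, ISH2 and control roots, as the fitted difference with its standard error, 3 arrays per group. Calvin cycle genes are green and photorespiration genes purple, and open points were not called. In ATHB25/REM7-ind roots all Calvin cycle genes lie above 0, in ISH2 roots 18 of 20 were called below 0, and in control roots responses stay between -0.40 and 0.28.

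By the median, the Calvin cycle genes moved further than those of photorespiration, up in ATHB25/REM7-ind and down in ISH2 roots. In ATHB25/REM7-ind roots the median response was 1.95 over the 20 Calvin cycle genes, with a range of 0.15 to 3.20. Over the 14 photorespiration genes it was 0.71, with a range of -1.19 to 4.18, and over all genes -0.01. The difference between the pathways was not tested. In ISH2 roots the medians were -2.16 for the Calvin cycle, -1.02 for photorespiration and 0.04 for all genes. In ISH1 roots they were -0.42, -0.14 and -0.08 in the same order. In control roots they were -0.07, -0.07 and 0.00. Called changes of at least 2-fold were made by 14 Calvin cycle genes in ATHB25/REM7-ind roots, all higher, and by 14 in ISH2 roots, all lower. For photorespiration 6 genes rose and 1 fell by at least 2-fold in ATHB25/REM7-ind roots, and 7 fell in ISH2 roots. Among all genes, 12% rose and 7.38% fell by at least 2-fold in ATHB25/REM7-ind roots, and 4.02% fell by as much in ISH2 roots.

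**Figure D2:**
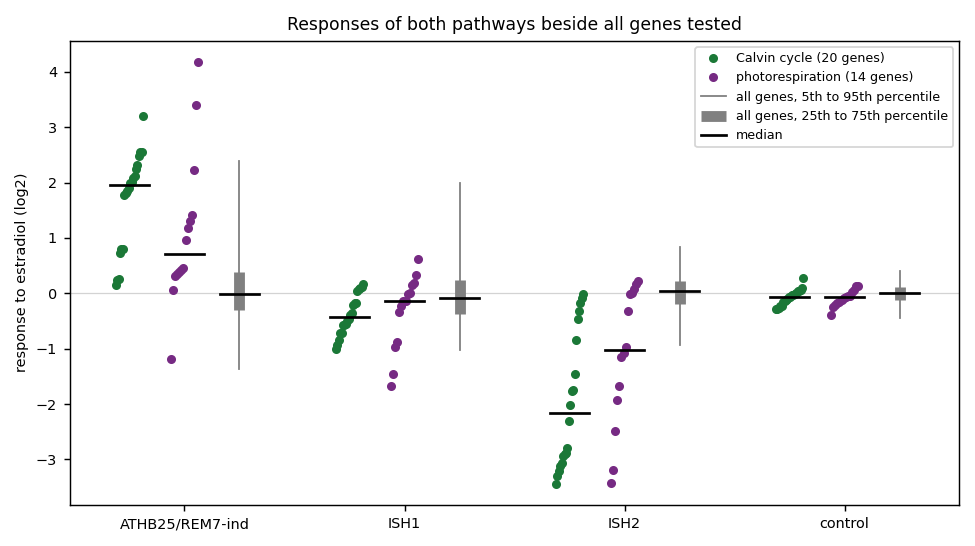
Response to estradiol on the log2 scale (y axis) in 4 lines, with 1 point per gene for the Calvin cycle (green, 20 genes) and photorespiration (purple, 14 genes), and all genes tested as a grey bar (25th to 75th percentile) and line (5th to 95th percentile). Black lines are medians, which for the Calvin cycle lie at 1.95 in ATHB25/REM7-ind, -0.42 in ISH1, -2.16 in ISH2 and -0.07 in control roots.

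Rubisco is built of large subunits encoded in the plastid and small subunits encoded by the nuclear RBCS family. RBCS2B (AT5G38420) had levels of 4.75, 4.66 and 4.69 in ATHB25/REM7-ind roots with estradiol, against 2.08, 2.05 and 2.30 without. In ISH2 roots it had -1.26, -1.60 and -0.61 with estradiol, against 2.08, 2.17 and 1.93 without. In ISH1 roots it had 1.85, 1.75 and 1.55 with estradiol, against 2.72, 2.21 and 2.35 without. The groups with and without estradiol did not overlap in any of the 3 transgenic lines. In control roots the levels were 1.61, 2.80 and 1.54 with estradiol, against 1.89, 1.86 and 2.16 without, and the high value belongs to replicate 2. The responses of RBCS2B were 2.56 ± 0.26 in ATHB25/REM7-ind (adjusted p = 1.03e-07), -0.71 ± 0.26 in ISH1 (adjusted p = 0.0265), -3.22 ± 0.26 in ISH2 (adjusted p = 1.52e-08) and 0.01 ± 0.26 in control roots (adjusted p = 0.984).

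RBCS3B (AT5G38410) followed the same order. It had levels of 4.98, 4.98 and 5.05 in ATHB25/REM7-ind roots with estradiol, against 2.56, 2.60 and 2.91 without. ISH2 roots had levels of -0.83, -1.19 and -0.21 with estradiol, against 2.47, 2.65 and 2.52 without. The groups did not overlap in these lines, and the responses were 2.31 ± 0.23 and -3.29 ± 0.23 (adjusted p = 4.83e-08 and 1.46e-09). RBCS1A (AT1G67090) and RBCS1B (AT5G38430) rose by 1.84 and 2.11 in ATHB25/REM7-ind roots, and their responses were -3.12 and -3.06 in ISH2 roots and -0.50 and -0.58 in ISH1 roots.

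The 4 RBCS genes are a family of near-identical members, of which RBCS1B, RBCS2B and RBCS3B lie next to each other in the genome, and the array may not tell them apart. Over the 24 arrays, the probes that stand for these 4 genes correlated at r = 0.989 to 0.998 with each other, across arrays that share their groups. The 12 dimmer probes of RBCS1A followed the probe used, with ISH1 responses of -0.65 to -0.37, while some dimmer probes of RBCS1B, RBCS2B and RBCS3B did not. A dimmer RBCS2B probe, chosen after its values were seen, had levels of -1.24, -2.06 and -2.34 in ATHB25/REM7-ind roots with estradiol, against -6.32, -7.96 and -7.04 without. In ISH1 roots it had -9.76, -8.05 and -6.82 with estradiol, against -0.83, -2.10 and -2.85 without. In ISH2 roots it had -6.81, -7.72 and -7.67 with estradiol, against -6.25, -6.34 and -7.04 without. This probe was thus as high in uninduced ISH1 roots as in induced ATHB25/REM7-ind roots, and its groups did not overlap within ISH1. In control roots it had -8.12, 0.85 and -4.00 with estradiol, against -7.53, -7.06 and -6.52 without, so that replicate 2 with estradiol was the highest of all 24 arrays. It correlated at r = 0.996 with a second dim RBCS2B probe and at r = 0.584 with the probe used in the tests. On 1 of the 3 ISH1 arrays with estradiol it was not well above background, and the second dim probe on 2 of them, so that no size of the ISH1 response is given for these probes.

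**Figure D3:**
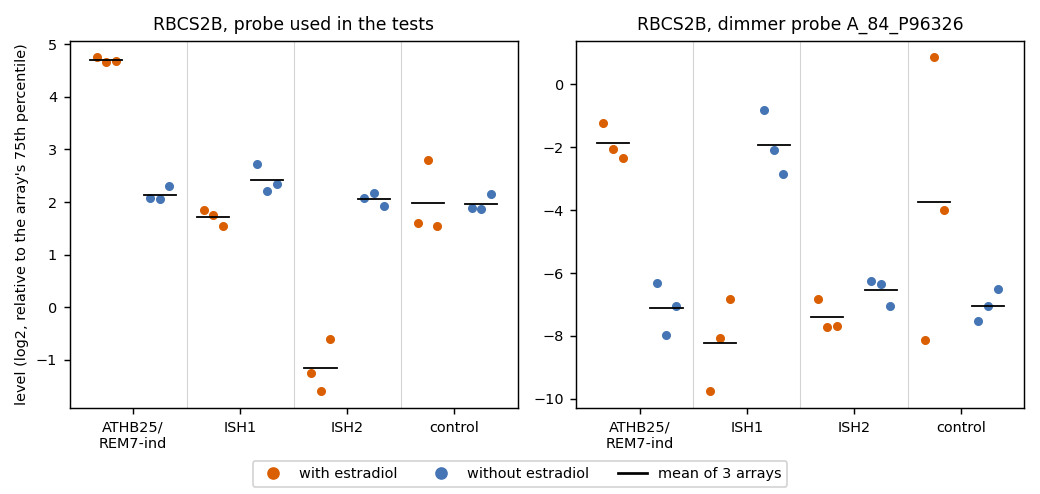
Levels of 2 RBCS2B probes (y axis, log2 relative to the array's 75th percentile) on each array, with estradiol in orange and without in blue, for 4 lines (x axis). Black lines are means of 3 arrays. The probe used in the tests is lowest in ISH2 roots with estradiol, at -1.60 to -0.61, whereas the dimmer probe is high in uninduced ISH1 roots, at -2.85 to -0.83, and on 1 control array, at 0.85.

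RCA (AT2G39730), Rubisco activase, which frees the enzyme's active site of bound sugar phosphates, rose by 1.78 ± 0.11 in ATHB25/REM7-ind roots and fell by 1.75 ± 0.11 in ISH2 and by 0.46 ± 0.11 in ISH1 roots. Its levels were 2.54 to 2.70 in ATHB25/REM7-ind roots with estradiol, against 0.78 to 0.93 without. In ISH2 roots they were -0.96 to -0.77 with estradiol, against 0.88 to 0.92 without. Neither pair of groups overlapped. The 9 RCA probes gave responses of 0.64 to 1.85 in ATHB25/REM7-ind and of -1.97 to -0.62 in ISH2 roots.

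The reduction phase holds the chloroplast phosphoglycerate kinase and glyceraldehyde-3-phosphate dehydrogenase, whose A subunits are encoded by GAPA-1 and GAPA-2 and whose B subunit by GAPB. GAPA-2 (AT1G12900) had the largest response of the Calvin cycle genes in ATHB25/REM7-ind roots. Its levels there were 2.77, 2.83 and 2.93 with estradiol, against -0.55, -0.41 and -0.10 without. In ISH2 roots they were -3.47, -3.76 and -3.19 with estradiol, against -0.57, -0.52 and -0.70 without. Both pairs of groups were far apart, with responses of 3.20 ± 0.21 (adjusted p = 2.54e-10) and -2.88 ± 0.21 (adjusted p = 3.73e-09). In ISH1 roots the levels of GAPA-2 overlapped, at -0.09, -0.31 and -0.75 with estradiol against -0.38, -0.60 and -0.39 without. They overlapped in control roots as well, at -1.0, -0.28 and -1.12 with estradiol against -0.88, -0.94 and -0.36 without.

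GAPB (AT1G42970) had levels of 3.60, 3.63 and 3.59 in ATHB25/REM7-ind roots with estradiol, against 0.95, 1.02 and 1.19 without. ISH2 roots had levels of -1.15, -1.32 and -1.13 with estradiol, against 0.82, 0.89 and 0.73 without. The responses were 2.56 ± 0.14 (adjusted p = 1.24e-11) and -2.02 ± 0.14 (adjusted p = 1.2e-09), beside 0.16 ± 0.14 in ISH1 and 0.05 ± 0.14 in control roots, neither of which was called. GAPA-1 (AT3G26650) went with them, at 2.08 in ATHB25/REM7-ind and -2.31 in ISH2 roots. In ISH1 roots, where all 4 RBCS genes fell, none of the 3 dehydrogenase genes was called, with values of 0.07 to 0.16. The families were not tested against each other. By limma no RBCS response in ISH1 roots differed from that in control roots with the probes used (adjusted p = 0.121 to 0.501). With the mean of all probes, RBCS1B and RBCS2B were called more negative in ISH1. RBCS2B was also called without control replicate 3 with estradiol. PGK1 (AT3G12780), the phosphoglycerate kinase, rose by 0.73 ± 0.06 in ATHB25/REM7-ind roots and fell by 0.31 ± 0.06 in ISH2 and by 0.21 ± 0.06 in ISH1 roots.

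The regeneration phase rebuilds the CO2 acceptor. HCEF1 (AT3G54050), the chloroplast fructose-1,6-bisphosphatase, had levels of 1.39, 1.44 and 1.47 in ATHB25/REM7-ind roots with estradiol, against -1.18, -1.09 and -0.88 without. In ISH2 roots it had -4.04, -4.28 and -3.69 with estradiol, against -1.27, -1.19 and -1.17 without. The groups did not overlap, and the responses were 2.48 ± 0.17 (adjusted p = 2.97e-10) and -2.79 ± 0.17 (adjusted p = 2.78e-10). In ISH1 roots HCEF1 fell by 0.56 ± 0.17 (adjusted p = 0.00692), with levels of -1.31, -1.62 and -1.87 with estradiol against -1.0, -1.27 and -0.85 without.

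SBPASE (AT3G55800), sedoheptulose-1,7-bisphosphatase, had levels of 1.29, 1.25 and 1.22 in ATHB25/REM7-ind roots with estradiol, against -1.17, -1.01 and -0.80 without. ISH2 roots had levels of -2.76, -2.88 and -3.18 with estradiol, against -1.14, -1.15 and -1.24 without. The responses were 2.25 ± 0.16 (adjusted p = 8.71e-10) and -1.76 ± 0.16 (adjusted p = 7.25e-08). In ISH1 roots, with -1.10, -1.21 and -1.51 with estradiol against -0.77, -1.08 and -0.89 without, the groups did not overlap but the response of -0.36 ± 0.16 was not called (adjusted p = 0.0638).

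PRK (AT1G32060), phosphoribulokinase, which makes the acceptor, rose by 2.02 ± 0.22 in ATHB25/REM7-ind roots and fell by 2.94 ± 0.22 in ISH2 roots. These sizes depend on the probe, since its 4 probes gave 0.92 to 2.02 and -3.59 to -0.29 in these lines. The aldolases FBA1 (AT2G21330) and FBA2 (AT4G38970) rose by 1.99 and 1.81 in ATHB25/REM7-ind roots and fell by 2.91 and 3.44 in ISH2 roots, where FBA2 had the largest fall among the Calvin cycle genes. The 2 FBA1 probes gave responses of -2.91 to -1.4 in ISH2 roots. In ISH1 roots the fall of FBA2, at -1.0 ± 0.22, was the largest among the Calvin cycle genes. The other enzymes of this phase moved little. RPE (AT5G61410), ribulose-phosphate epimerase, rose by 0.80 in ATHB25/REM7-ind roots and fell by 0.46 in ISH2 roots. TKL1 (AT3G60750), a transketolase, PDTPI (AT2G21170), the plastid triose-phosphate isomerase, and EMB3119 (AT3G04790) rose by 0.27, 0.23 and 0.15 in ATHB25/REM7-ind roots. In ISH2 roots TKL1 was at -0.09 and PDTPI at -0.01, neither of them called, and EMB3119 fell by 0.17. The TKL1 call rests on the probe chosen, since its 4 probes ran between -0.09 and 0.27 in ATHB25/REM7-ind roots, and it was lost with the mean of all probes (adjusted p = 0.0659).

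CP12 proteins bind phosphoribulokinase and glyceraldehyde-3-phosphate dehydrogenase into an inactive complex in the dark. Both of their genes rose in ATHB25/REM7-ind roots, CP12-1 (AT2G47400) by 0.80 ± 0.09 and CP12-2 (AT3G62410) by 1.91 ± 0.19, and both fell in ISH2 roots, by 1.46 ± 0.09 and 0.84 ± 0.19. CP12-1 was 1 of the 2 genes called in control roots, at -0.27 ± 0.09 (adjusted p = 0.0391). In ISH1 roots it fell by 0.93 ± 0.09, while CP12-2 was at 0.11 ± 0.19 and was not called.

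Photorespiration starts in the chloroplast, where PGLP1 removes the phosphate from phosphoglycolate. PGLP1 (AT5G36700) had levels of -1.38, -1.44 and -1.44 in ATHB25/REM7-ind roots with estradiol, against -5.02, -4.84 and -4.59 without. In ISH2 roots it had -8.30, -9.08 and -7.52 with estradiol, of which 1 of 3 arrays was well above background, against -4.88, -4.74 and -4.98 without. The responses were 3.40 ± 0.33 (adjusted p = 4.77e-08) and -3.43 ± 0.33 (adjusted p = 1.21e-07), and the groups did not overlap. The ISH2 value is set against background on 2 arrays and is not ranked with those of other genes. With the normexp background correction it was -1.43 (adjusted p = 0.0107). For the other 33 genes a probe stood well above background on every array. AT5G36790, listed among the other genes of the pathway, had no matched probe.

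Glycolate oxidase, which produces glyoxylate and hydrogen peroxide in the peroxisome, is encoded by the neighbouring genes GOX1 (AT3G14420) and GOX2 (AT3G14415). GOX1 had the largest response of the 34 genes in ATHB25/REM7-ind roots. Its levels there were 0.95, 1.54 and 1.44 with estradiol, against -2.87, -3.12 and -2.62 without. In ISH2 roots they were -5.36, -6.11 and -4.49 with estradiol, against -2.11, -1.96 and -2.30 without. The responses were 4.18 ± 0.42 (adjusted p = 8.33e-08) and -3.20 ± 0.42 (adjusted p = 6.24e-06). In ISH1 roots the groups overlapped, at -1.40, -1.77 and -2.37 with estradiol against -1.89, -2.54 and -2.10 without. In control roots they overlapped too, at -3.07, -1.35 and -3.14 with estradiol against -2.57, -2.47 and -1.89 without, with replicate 2 again the high array. The 4 GOX1 probes gave responses of 2.22 to 4.36 in ATHB25/REM7-ind and of -3.20 to -1.60 in ISH2 roots. GOX2 rose by 1.18 ± 0.11 in ATHB25/REM7-ind roots and fell by 1.67 ± 0.11 in ISH2 and by 0.96 ± 0.11 in ISH1 roots.

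GGT1 (AT1G23310), the glutamate:glyoxylate aminotransferase, was the 1 gene of the 34 that rose in both ATHB25/REM7-ind and ISH1 roots and fell in ISH2 roots. Its levels were 3.00, 3.11 and 3.00 in ATHB25/REM7-ind roots with estradiol, against 1.61, 1.74 and 1.84 without. In ISH1 roots they were 2.47, 2.36 and 2.46 with estradiol, against 1.77, 1.78 and 1.87 without. In ISH2 roots they were 1.45, 1.47 and 1.43 with estradiol, against 1.74, 1.73 and 1.84 without. None of these pairs of groups overlapped, and the responses were 1.31 ± 0.05 (adjusted p = 5.28e-13), 0.62 ± 0.05 (adjusted p = 1.34e-08) and -0.32 ± 0.05 (adjusted p = 9.54e-05). In control roots the levels were 1.77, 1.80 and 1.73 with estradiol, against 1.76, 1.68 and 1.78 without.

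AGT1 (AT2G13360), a peroxisomal aminotransferase that uses serine and glyoxylate, differed from GGT1. It rose by only 0.30 ± 0.10 in ATHB25/REM7-ind roots (adjusted p = 0.0148) and fell by 1.67 ± 0.10 in ISH1 roots, the largest fall of the 34 genes there, and by 1.15 ± 0.10 in ISH2 roots. CAT2 (AT4G35090), the leaf peroxisome catalase that removes hydrogen peroxide, rose by 0.42 ± 0.07 in ATHB25/REM7-ind roots and was not called in ISH1, ISH2 or control roots, at -0.01, 0.07 and -0.06.

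In mitochondria, the glycine decarboxylase complex and serine hydroxymethyltransferase convert glycine to serine. GDCH (AT2G35370), the H protein of the complex, had levels of 0.24, 0.24 and 0.23 in ATHB25/REM7-ind roots with estradiol, against -1.31, -1.27 and -0.94 without. ISH2 roots had levels of -2.96, -3.30 and -3.07 with estradiol, against -1.23, -1.16 and -1.17 without. In ISH1 roots it had -1.89, -2.09 and -2.12 with estradiol, against -1.12, -1.31 and -1.04 without. The responses were 1.41 ± 0.11, -1.92 ± 0.11 and -0.88 ± 0.11 in these 3 lines (adjusted p = 2.44e-09, 1.6e-10 and 1.69e-06). GDCH was also the other gene called in control roots, at -0.40 ± 0.11 (adjusted p = 0.0208), with -1.65, -1.45 and -1.63 with estradiol against -1.27, -1.29 and -0.97 without. SHM1 (AT4G37930), the hydroxymethyltransferase, rose by 0.96 ± 0.06 in ATHB25/REM7-ind roots and fell by 0.97 ± 0.06 in ISH2 and by 0.23 ± 0.07 in ISH1 roots, where 1 of its 3 values with estradiol was missing. The P proteins of the complex stayed near 0. GLDP1 (AT4G33010) rose by 0.38 ± 0.08 in ATHB25/REM7-ind roots and was at -0.14 in ISH1 and -0.02 in ISH2 roots, uncalled, while GLDP2 (AT2G26080) was called in ISH1 roots alone, at -0.15 ± 0.06 (adjusted p = 0.0336).

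HPR1 (AT1G68010), the peroxisomal hydroxypyruvate reductase, had levels of 1.78, 1.79 and 1.56 in ATHB25/REM7-ind roots with estradiol, against -0.57, -0.61 and -0.40 without. In ISH2 roots it had -2.96, -3.16 and -2.80 with estradiol, against -0.50, -0.42 and -0.53 without. The responses were 2.24 ± 0.14 (adjusted p = 1.17e-10) and -2.49 ± 0.14 (adjusted p = 1.27e-10). In ISH1 roots the levels were -0.65, -0.79 and -1.10 with estradiol, against -0.53, -0.74 and -0.29 without, which overlap, and the response of -0.33 ± 0.14 was just called (adjusted p = 0.0494).

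GLYK (AT1G80380), the glycerate kinase that returns carbon to the Calvin cycle in the last step, was the 1 gene that fell in ATHB25/REM7-ind roots. Its levels were 1.71, 1.54 and 1.37 in ATHB25/REM7-ind roots with estradiol, against 2.72, 2.72 and 2.76 without. In ISH1 roots they were 1.40, 1.60 and 1.67 with estradiol, against 2.97, 2.99 and 3.08 without. In ISH2 roots they were 1.73, 1.67 and 1.48 with estradiol, against 2.60, 2.65 and 2.86 without. GLYK was the 1 gene of the 34 that fell in all 3 transgenic lines, by 1.19 ± 0.09, 1.46 ± 0.09 and 1.07 ± 0.09 (adjusted p = 1.57e-09, 1.42e-10 and 2.17e-08), where 9.94% of all genes did. In control roots its levels overlapped, at 2.74, 2.82 and 2.72 with estradiol against 2.90, 2.90 and 2.73 without. Its 3 probes gave responses of -1.28 to -1.19 in ATHB25/REM7-ind roots. DiT1 (AT5G12860) and DiT2.1 (AT5G64290), chloroplast dicarboxylate transporters of photorespiratory nitrogen recycling, rose by 0.46 ± 0.07 and 0.34 ± 0.04 in ATHB25/REM7-ind roots. They were also the 2 genes that rose in ISH2 roots, by 0.16 ± 0.07 and 0.22 ± 0.04, and the call of DiT1 there (adjusted p = 0.0493) was lost in 12 alternative settings.

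**Figure D4:**
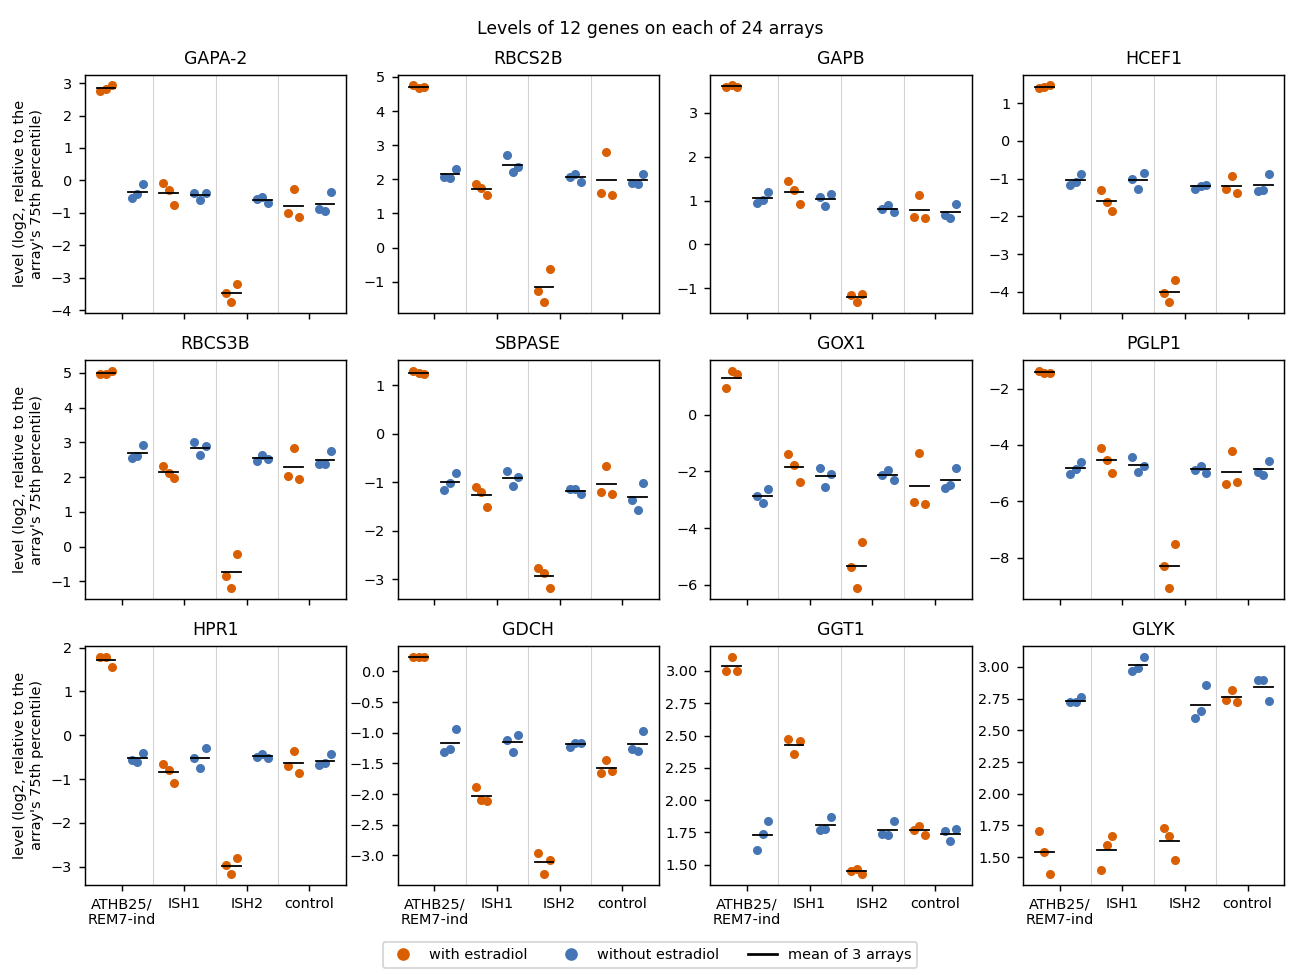
Levels (y axis, log2 relative to the array's 75th percentile, a scale of its own in each panel) of 12 genes on each of 24 arrays, with estradiol in orange and without in blue, for 4 lines (x axis). Black lines are means of 3 arrays. For GAPA-2 the ATHB25/REM7-ind arrays with estradiol lie at 2.77 to 2.93 and the ISH2 arrays with estradiol at -3.76 to -3.19, with all other groups between -1.12 and -0.09, whereas GLYK is low with estradiol in all 3 transgenic lines.

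The lines were then compared in their response. The comparisons with control roots share the control arrays, and those between transgenic lines share arrays with them. Relative to the control response, 31 genes responded more positively in ATHB25/REM7-ind roots and 1, GLYK, more negatively, where 25.2% and 26.8% of all genes did. In ISH2 roots 24 genes responded more negatively than in control roots and 1 more positively, where 11.1% and 10.1% of all genes did. In ISH1 roots 10 genes responded more negatively and 1, GGT1, more positively, where 27.8% and 20.4% of all genes did. The share of ISH1 genes, 29.4%, was thus near that of all genes. The 10 included AGT1, at -1.42, GLYK, at -1.37, FBA2, at -0.96, and GOX2, at -0.81.

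Between the transgenic lines, the response was more positive in ATHB25/REM7-ind than in ISH2 roots for 31 genes and more negative for 0, where 23.3% and 31.4% of all genes were called. At an unadjusted p below 0.05 these limma counts were 32 and 0. The difference was 6.08 for GAPA-2 and 7.38 for GOX1, which ran from 5.95 to 7.79 over the settings tried. The 4 GOX1 probes differed in the size of their responses, as given above. The 3 genes that were not called are GLDP2, GLYK and DiT2.1. Set against ISH1, 33 genes responded more positively in ATHB25/REM7-ind roots and 0 more negatively, also at an unadjusted p below 0.05, where 23.5% and 22.9% of all genes were called. GLYK, at 0.26, was the exception (adjusted p = 0.104).

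In all, 26 of the 34 genes both rose in ATHB25/REM7-ind and fell in ISH2 roots, 18 of them of the Calvin cycle, and for all 26 the difference between the 2 responses was called. Of all genes, 6.81% showed this pattern. The median difference between these lines was 4.48 over the Calvin cycle genes and 1.54 over the photorespiration genes, beside -0.09 over all genes. A comparison of ISH2 with ISH1 was added after the responses had been seen. The response was more negative in ISH2 than in ISH1 roots for 22 genes, where 18.1% of all genes were called, and more positive for 2, AGT1 and GLYK, where 26.4% were. GAPA-2 differed by -2.95 and GOX1 by -3.53, the latter with -3.94 to -2.27 over the settings tried. In both single lines 19 of the genes fell, where 15.7% of all genes did.

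Within slides, all 20 Calvin cycle genes were above the control array in ATHB25/REM7-ind roots on each of the 3 slides with estradiol, with medians of 2.29, 1.66 and 2.40. In ISH2 roots 0, 2 and 3 of the 20 were above it, with medians of -1.92, -2.45 and -1.76. In ISH1 roots 10, 3 and 9 were above it, with medians of 0.05, -0.41 and -0.09. On the slide of replicate 2 all 3 lines read lowest against the control, which is the slide of the control array that stood apart. Without that array, 30 genes still responded more positively in ATHB25/REM7-ind than in control roots, 24 more negatively in ISH2 and 9 in ISH1 roots.

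The lines differed little in these genes in plants without estradiol. In those plants ATHB25 was already above control roots in all 3 transgenic lines, and REM7 in ATHB25/REM7-ind roots. Without estradiol, 0 of the 34 genes were called between ISH1 and control roots by limma (2 higher and 0 lower at an unadjusted p below 0.05), where 0.64% of all genes were higher and 0.126% lower. Between ISH2 and control roots 0 were called, also at an unadjusted p below 0.05, where 0.313% of all genes were higher and 0.338% lower. In ATHB25/REM7-ind roots DiT2.1 was higher than in control roots by 0.17 (adjusted p = 0.0105) and CP12-1 lower by -0.31 (adjusted p = 0.0306), where 4.17% of all genes were higher and 5.45% lower. The median difference over the 20 Calvin cycle genes was 0.09 in ATHB25/REM7-ind, 0.16 in ISH1 and 0.07 in ISH2 roots.

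The 2 falls in control roots, of CP12-1 and GDCH, were not called without the 2 arrays whose description says otherwise. The fall in ISH1 roots depended on single arrays. It held for 14 genes in place of 21 without ISH1 replicate 1 without estradiol, the array with the highest share of probes above background, and likewise for 14 without ISH1 replicate 3 with estradiol. RBCS1A, RBCS1B, RBCS2B, PRK, PDTPI, HPR1 and GLDP2 were not called without the first of these. AGT1, GLYK, CP12-1, GOX2, GDCH, FBA2, FBA1, RPE, RCA, RBCS3B and HCEF1 were called in each setting tried other than the 2-fold minimum, as was the rise of GGT1. With that minimum the fall of AGT1, GLYK and FBA2 was called, and 0 genes rose.

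Other genes of these pathways responded less uniformly, and their counts stand beside the 31.6% of all genes that rose and the 33% that fell in ATHB25/REM7-ind roots, and the 27.3% and 21.9% in ISH2 roots. Of 15 other genes of the Calvin cycle and Rubisco assembly, 7 rose and 3 fell in ATHB25/REM7-ind roots, 46.7% and 20% of them, with a median of 0.17, and 1 rose and 7 fell in ISH2 roots, with a median of -0.16. AT5G28500 and AT3G47650 had the largest called responses of that list, at 1.65 and 1.10 in ATHB25/REM7-ind and -1.59 and -1.26 in ISH2 roots. A larger response of the other sign, -4.22 in ATHB25/REM7-ind roots, was not called. Of 20 other photorespiration genes tested, 11 rose and 6 fell in ATHB25/REM7-ind roots, 55% and 30% of them, and 6 rose and 7 fell in ISH2 roots. GLU1, the ferredoxin-dependent glutamate synthase that recovers the ammonium of photorespiration, rose by 3.43 ± 0.23 in ATHB25/REM7-ind roots and fell by 1.93 ± 0.23 in ISH2 roots. LrgB rose by 4.77 ± 0.26 and fell by 2.67 ± 0.26 in the same lines. Among 14 isoforms of the same reactions outside the cycle, 4 rose and 4 fell in ATHB25/REM7-ind roots, 28.6% each, with a median of -0.07, and 3 rose and 3 fell in ISH2 roots, 21.4% each, shares near those of all genes. FBA7, an aldolase, went with the Calvin cycle genes, at 1.78 and -1.95. The highest response of the 14 in ATHB25/REM7-ind roots was 4.99, in another gene, and 2 of the 14 rose there by at least 2-fold. The lists were written with earlier results known.

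Markers of the shoot epidermis were higher in ATHB25/REM7-ind roots with estradiol, while single root tissue markers moved in both directions. Of 9 markers of the shoot epidermis on the array (guard cell lineage and trichome), 7 were well above background on all 3 arrays of ATHB25/REM7-ind roots with estradiol, and 2 or 3 in each of the other 7 groups. GL1, a defining trichome gene, was well above background on none of those 3 arrays. Their summed signal, relative to the 75th percentile of the array, was 0.36 to 0.396 in ATHB25/REM7-ind roots with estradiol, against 0.0609 to 0.0693 without. It was 0.0701 to 0.0795 in ISH2 roots with estradiol, against 0.0553 to 0.0659 without. Control roots likewise had 0.0709 to 0.0748 with estradiol, against 0.0525 to 0.06 without. On 1 uninduced ISH1 array the sum was 0.147. The 11 root tissue markers were well above background on every array. Their summed signal was 20.3 to 21.5 in ATHB25/REM7-ind roots with estradiol, against 27.0 to 30.5 without. In ISH1 roots it was 19.6 to 22.6 with estradiol, against 25.5 to 28.4 without. In ISH2 roots it was 23.5 to 27.4 with estradiol, against 26.8 to 28.0 without. Control roots had 23.3 to 24.6 with estradiol, against 24 to 28.2 without. Gene by gene, 5 of the 11 rose and 3 fell in ATHB25/REM7-ind roots (45.5% and 27.3%), with a median response of 0.13. Of all genes 31.6% rose and 33% fell there. In ISH1 roots 4 rose and 3 fell (36.4% and 27.3%), with a median of 0.06. Of all genes 26.3% rose and 36.4% fell in that line. The part of these tissues in the responses was not tested.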

How the data were processed

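The authors deposited the scanner output of 24 one-colour arrays, an intensity per probe which, per the file headers, comes from version 10.7.3.1 of Agilent Feature Extraction and is corrected for background, with arrays left unscaled. They also deposited log2 values scaled to the 75th percentile and centred per probe, which correlated at 0.99992 to 0.999995 per array with values computed here and served as an alternative. Control spots and 346 marked spots were left out, which left 238 values missing, and 0 values were saturated. Spots were averaged, log2 was taken and each array's 75th percentile (4577 to 6427) was subtracted. The reference table gave a locus for 34348 of the 43603 probes. Probes well above background on all 3 arrays of a group were kept (36571), and the brightest stood for its gene. Limma 3.58.1 in R 4.3.3 was fitted to all arrays in 8 groups without a block, two-sided. The script was tested on simulated data. The number of arrays, 3 in each group, bounds the precision, and an exact permutation test of 3 against 3 arrays cannot go below p = 0.1. The loci, lists and tests were chosen with earlier results of these data known. Levels are given per array for the 6 Calvin cycle and 5 photorespiration genes with the largest response in ATHB25/REM7-ind roots and for any gene called against its pathway's median there, of which there was 1. At most 3 genes of each other list were named. The alternatives were other normalizations and filters, the mean of all probes, blocks for slide and replicate, a 2-fold minimum and the omission of single arrays. No sequences or coordinates are given, as no genome of the array's build was used here.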

Additional observations from a re-analysis of the deposited data

Results flagged for a closer look

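The response to estradiol differed between lines by limma's test of the difference itself (adjusted p below 0.05) for many of the 34 genes. It differed between ATHB25/REM7-ind and control roots for 32 genes, between ISH1 and control roots for 11, between ISH2 and control roots for 25, between ATHB25/REM7-ind and ISH1 roots for 33, between ATHB25/REM7-ind and ISH2 roots for 31 and between ISH2 and ISH1 roots for 24. Beside these, 52.1%, 48.2%, 21.2%, 46.4%, 54.7% and 44.5% of all genes were called in the same order, so the share for ISH1 against control roots lies below that of all genes.

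Of the genes given array by array, 11 rose in ATHB25/REM7-ind and fell in ISH2 roots. The response in ATHB25/REM7-ind minus that in ISH2 roots was 6.08 for GAPA-2, 5.77 for RBCS2B, 4.57 for GAPB, 5.28 for HCEF1, 5.61 for RBCS3B and 4.01 for SBPASE. It was 7.38 for GOX1, 4.73 for HPR1, 3.33 for GDCH and 1.62 for GGT1. The GOX1 value ran from 5.95 to 7.79 over the settings tried. For PGLP1 the fitted value was 6.83, and it ran from 4.28 to 7.22 over the settings tried, with 2 of the 3 ISH2 arrays with estradiol not well above background. For each of these genes the 3 arrays with and the 3 without estradiol did not overlap in either line. These 11 genes were chosen for their large response in ATHB25/REM7-ind roots. Among all genes the arrays with estradiol lay wholly above those without for 35.2% and wholly below for 35.8% in ATHB25/REM7-ind roots. In ISH2 roots these shares were 31.7% and 24.9%.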

How the results depend on the processing

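The directions of all 12 genes given array by array held in each of the 4 lines under every setting tried wherever they were called, and 17 values lost and 4 gained a call among 716 alternative values. The counts of genes called moved by over 1.5 times in the following settings. With a minimum of 2-fold, 20 genes rose in ATHB25/REM7-ind roots, 0 rose and 3 fell in ISH1, 0 rose in ISH2 and 0 fell in control roots. The count relative to the control response was then 0 higher and 2 lower for ISH1 and 0 higher for ISH2, ISH2 against ISH1 gave 0 higher, and uninduced ATHB25/REM7-ind roots gave 0 higher and 0 lower. The rise in ISH2 roots held for 1 gene (DiT2.1) with quantile normalization, normexp, the authors' log2 values, no filter, the mean of all probes, the replicate block or without the 2 contradictory control arrays. The fall in control roots held for 1 gene with quantile normalization or no filter, and for 0 with normexp or without those 2 arrays. Normexp gave 6 lower genes for ISH1 against control, and 2 higher in uninduced ATHB25/REM7-ind roots. ISH2 against control gave 0 higher with no filter or without the 2 arrays, ISH2 against ISH1 gave 1 higher with the mean of all probes, and uninduced ATHB25/REM7-ind roots gave 0 lower with that mean or without the 2 arrays.

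When single arrays were left out, 31 to 32 genes rose in ATHB25/REM7-ind roots, 14 to 21 fell in ISH1, 26 to 28 fell and 1 to 2 rose in ISH2, and 0 to 2 fell in control roots. Relative to the control response, 30 to 31 genes were higher in ATHB25/REM7-ind, 1 to 2 higher and 9 to 12 lower in ISH1, and 0 to 1 higher and 24 to 25 lower in ISH2. ATHB25/REM7-ind gave 31 to 33 higher against ISH1 and 30 to 32 against ISH2, and ISH2 against ISH1 gave 1 to 3 higher and 22 to 23 lower. In uninduced ATHB25/REM7-ind roots 0 to 1 genes were lower.

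Arrays of the same number in a line showed little correlation of their deviations (r of -0.036 to 0.099, median 0.005), and the tests did not pair them. Arrays on the same slide, which share a treatment and a number, had r of -0.093 to 0.404 (median 0.044). Whether arrays of 1 number share a culture cannot be told from these values. With the replicate block 20 genes fell in ISH1 roots, in place of 21, and 1 rose in ISH2 roots. Only the count of rises in ISH2 roots moved by over 1.5 times. The cause of these changes was not tested. Dim probes limit PGLP1 in ISH2 roots and the second RBCS2B signal.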
